A study of Mus musculus with 4 samples.

Results

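Of the 10 genes listed for iron uptake, iron storage, iron export, iron sensing and heme breakdown, 9 had a probe set of their own on the array, out of 19938 genes that did. They were chosen by symbol, as the probe sets whose platform annotation gave exactly 1 gene symbol among Tfrc, Steap3, Slc11a2, Slc11a1, Fth1, Slc40a1, Aco1, Hmox1, Blvra and Blvrb, after symbols were brought up to date through their Entrez numbers. Each of the 9 had 1 such probe set, and Slc11a1 had none and was not analysed here. The 10 genes were listed with earlier results of these data known. The shares over all probe sets given below are therefore context and not a test of the list.

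The values came from 4 Affymetrix Mouse Gene 1.0 ST arrays, 1 for each RNA sample, with 2 samples in each group. The cells were the Flt3-negative part of the LSK gate of mouse bone marrow, that is, lineage-negative cells with surface Sca-1 and Kit but without surface Flt3, a fraction rich in blood stem cells. Control mice were Mx1Cre-GABPa(FL/+), with 1 floxed and 1 wild-type allele of Gabpa, and the mice labelled GABPalpha-deficient were Mx1Cre-GABPa(FL/-), with 1 floxed and 1 null allele. Both groups carried Mx1Cre, both received pIpC, and cells of both were taken 4 days after its last dose, from mice aged 6 to 8 weeks of a stock backcrossed for 4 generations to C57/BL6. Mx1Cre is driven by an interferon-responsive promoter and acts in many cell types of marrow, liver and spleen, and pIpC induces interferon, so neither group was an untreated or a fully wild-type reference. Nothing in the labels tells whether 1 mouse or a pool of mice gave a sample, so the p-values reflect the spread between these 4 samples, which may be technical.

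Cells take up iron bound to transferrin through the transferrin receptor, reduce it in the endosome and pass it to the cytosol through a divalent metal transporter. Iron that is not used is stored in ferritin or leaves through ferroportin, and iron regulatory proteins tune the messenger RNAs of several of these proteins to the iron supply. Developing red cells take up most of the iron, for heme, while macrophages that clear old red cells break heme down with heme oxygenase, whose product biliverdin is reduced to bilirubin. Blood stem cells themselves are known to keep their labile iron low.

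All values are log2 expression after RMA, the authors' normalization, and all differences are the mean of the arrays labelled deficient minus the mean of the control arrays, each with its standard error (SE) from limma's moderated fit. A gene was called at an adjusted p under 0.05 over all 35556 probe sets. None of the 9 genes was called, against a background of 0% of probe sets higher and 0% lower, so no single gene below passed the test and each is given by its values. At an unadjusted p under 0.05, 4 of the 9 were higher on the arrays labelled deficient, where 6.64% of all probe sets were, and 0 of the 9 were lower, where 5.25% were. Over all probe sets that was 2360 higher and 1865 lower with the deposited values, but 1191 and 2349 with cyclic loess between arrays, which moved the median difference of all probe sets from 0.15 to -0.0045, while all 9 differences stayed above 0 under that scaling. Both arrays labelled deficient lay above both control arrays for 7 of the 9 genes, as they did for 38.9% of all probe sets, and for 0 of the 9 did both lie below, as for 14.0%. The median difference was 1.13 over the 9 genes, 0.16 over all 19938 genes and 0.15 over all probe sets, and it was 0.87 over the 9 genes without deficient replicate 1. All 9 differences were above 0, as were 67.6% of those of all genes, but Aco1 was below 0 without control replicate 1 or deficient replicate 1, and Tfrc was below 0 without deficient replicate 2.

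Several facts of the whole table bear on these values. The targeted gene, Gabpa, read 8.43 and 7.28 in the controls and 6.43 and 7.85 on the deficient-labelled arrays, so its probe set did not separate the groups, and since the position of the deleted exons was not known here it may check nothing about the deletion. Correlations across probe sets were 0.960 between the control arrays, 0.944 between those labelled deficient, and 0.923 to 0.942 between groups. Of the genes of the gate, Kit read 10.21 on both control arrays, against 7.70 and 8.50 on the deficient-labelled arrays, Flt3 read 8.43 and 9.26, against 5.68 and 5.95, Cd34, a sialomucin of progenitors, read 11.30 and 11.31, against 8.002 and 7.53, and Ly6a, which encodes Sca-1, was not analysed here. Of 14 measured stem cell and gate genes, 11 were lower and 1 higher at an unadjusted p under 0.05, where 5.25% and 6.64% of all probe sets were. Their summed level (antilogs of the log2 values added up) was 10670 and 10527 in the controls and 3040 and 3607 on the deficient-labelled arrays. In such bulk samples, fewer cells of a type and less RNA per cell cannot be told apart.

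Markers of 3 other kinds of cell were read next. Erythroid and macrophage markers were mostly higher on the arrays labelled deficient, as the iron genes were. Stromal and endothelial markers had a share above 0 nearer that of all genes, but a larger share higher at an unadjusted p under 0.05 than all probe sets. Of 17 measured erythroid markers, 11 were higher and 1, Nfe2, was lower at an unadjusted p under 0.05, where 6.64% and 5.25% of all probe sets were. Their median difference was 1.77, and their summed level was 4262 and 4372 in the controls against 9344 and 11243 on the deficient-labelled arrays. Klf1, a master regulator of red cell genes, read 7.90 on both control arrays and 9.68 and 9.65 on the deficient-labelled arrays. Of 18 measured macrophage markers, 10 were higher and 0 lower, with a summed level of 2147 and 1995 against 4226 and 3008. Their median difference was 0.71. It was 1.16 without deficient replicate 2, 0.56 without deficient replicate 1 and 0.55 with cyclic loess. The macrophage count was 5 without either control replicate or with cyclic loess, and 6 without deficient replicate 1. Vcam1, an adhesion molecule of marrow macrophages and stroma, read 6.39 and 6.94 against 9.04 and 8.48. Of 16 measured stromal and endothelial markers, 12 had a difference above 0, where 67.6% of all genes did. At an unadjusted p under 0.05, 5 were higher (3 with the replicate block) and 1, Vwf, was lower, where 6.64% and 5.25% of all probe sets were. Both arrays labelled deficient lay above both controls for 10 of the 16, where they did for 38.9% of all probe sets. For 2 of the 16 both lay below, against 14.0%. The median difference of the 16 markers was 0.39, and their summed level was 1471 and 1495 against 3375 and 2623. Sparc, a matrix glycoprotein, read 6.19 and 6.56 against 10.38 and 9.98. It was the brightest of the 16 on both arrays labelled deficient, so it weighed most in the sums there. The part of any of these cell types in the differences below was not tested. RMA values have no 0, so no marker was listed at 0.

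**Figure D1:**
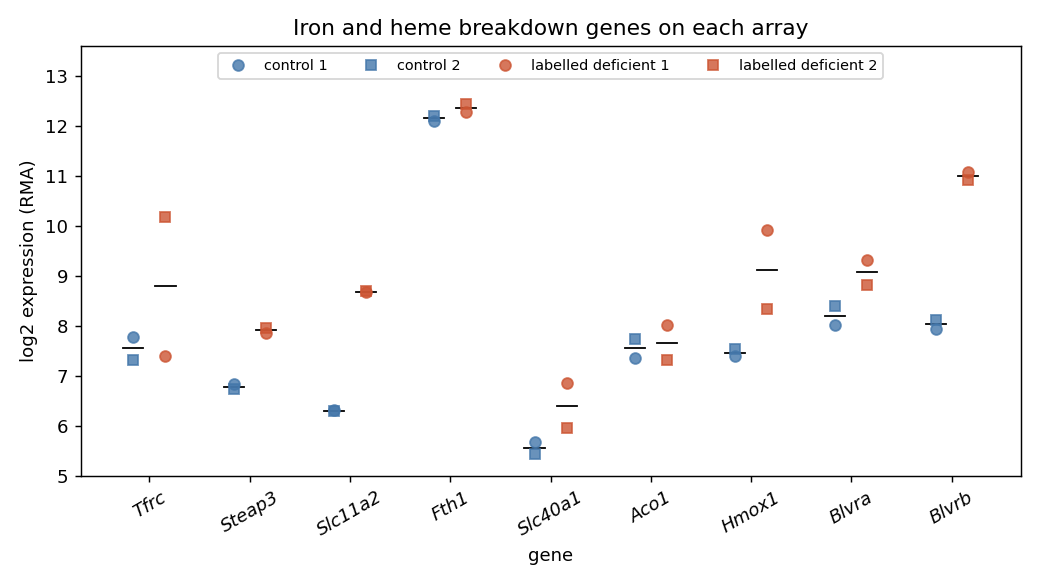
Log2 expression (vertical axis) of the 9 genes on each of the 4 arrays, with controls in blue, arrays labelled deficient in orange, circles for replicate 1, squares for replicate 2 and a bar at each group's mean. Slc11a2, Steap3 and Blvrb lie close together within each group and apart between groups, Tfrc is high on deficient replicate 2 alone, and Hmox1 is highest on deficient replicate 1.

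Of the uptake genes, Slc11a2 and Steap3 were higher on both arrays labelled deficient, while Tfrc was higher on 1 of them. Slc11a2 encodes DMT1, which carries ferrous iron out of the endosome. It read 6.30 and 6.29 in the controls and 8.67 and 8.70 on the deficient-labelled arrays. The arrays within a group differed by at most 0.029, far less than the groups, which did not overlap. The difference was 2.39 (SE 0.14, n = 2 per group, limma adjusted p = 0.169), which is 5.23-fold, and 99.8% of probe sets had a lower difference. Leaving out any 1 array gave 2.37 to 2.40. The probe set gives 1 value for the gene, so the transcript forms of Slc11a2 with and without an iron-responsive element were not separated.

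Steap3 encodes the main ferrireductase of the erythroid endosome, which turns ferric iron into the ferrous form that DMT1 carries. It read 6.83 and 6.72 in the controls and 7.86 and 7.95 on the deficient-labelled arrays. Again the arrays of a group lay close together and the groups apart, at about the same distance for each pair of arrays. The difference was 1.13 (SE 0.15, limma adjusted p = 0.252), or 2.18-fold, and 98.3% of probe sets had a lower difference.

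Tfrc encodes transferrin receptor 1, which takes up iron-loaded transferrin. It read 7.78 and 7.32 in the controls and 7.39 and 10.18 on the deficient-labelled arrays. Deficient replicate 1 thus lay within the control range, and deficient replicate 2 stood 2.40 above the higher control, so the groups overlapped. The difference of the means was 1.24 (SE 1.04, limma adjusted p = 0.567), and it was 2.63 without deficient replicate 1 and -0.16 without deficient replicate 2. A gap between the arrays labelled deficient as large as that of Tfrc, 2.79, was seen in 1.17% of all probe sets. Slc11a2, whose gap was 0.029, and Steap3, at 0.097, had no such gap, although the 3 proteins work in the same endosomes.

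Storage, export and sensing genes differed less between the groups. Fth1, the ferritin heavy chain that oxidises iron for storage, read 12.10 and 12.20 in the controls and 12.27 and 12.44 on the deficient-labelled arrays. The groups did not overlap, but they lay only 0.071 apart at their nearest, less than the 0.097 between the control arrays and the 0.16 between those labelled deficient. The difference was 0.20 (SE 0.15, limma adjusted p = 0.538), close to the median of 0.15 over all probe sets, and 0.12 without deficient replicate 2. Fth1 has many processed copies in the genome, and whether these add to its signal was not tested.

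Slc40a1 encodes ferroportin, the iron exporter of macrophages, gut and liver, which erythroid cells also carry. It read 5.67 and 5.44 in the controls and 6.85 and 5.94 on the deficient-labelled arrays. Both arrays labelled deficient were above the controls, replicate 1 clearly and replicate 2 by 0.28. The difference was 0.84 (SE 0.36, limma adjusted p = 0.432), and it was 1.29 without deficient replicate 2 and 0.39 without deficient replicate 1. With cyclic loess between arrays the groups overlapped.

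Aco1 encodes iron regulatory protein 1, a cytosolic aconitase that binds iron-responsive elements when iron is scarce. It read 7.36 and 7.73 in the controls and 8.01 and 7.32 on the deficient-labelled arrays, so deficient replicate 2 was the lowest of the 4 arrays and deficient replicate 1 the highest. The difference was 0.12 (SE 0.31, limma adjusted p = 0.853). Its sign turned without 1 array, to -0.22 without deficient replicate 1 and to -0.067 without control replicate 1, and it was 0.46 without deficient replicate 2 and 0.30 without control replicate 2.

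Of the 9 genes, the 3 of heme breakdown were higher on both arrays labelled deficient, Blvrb by far the most. Blvrb encodes biliverdin reductase B, also known as flavin reductase, which is abundant in red cells. It read 7.94 and 8.12 in the controls and 11.07 and 10.91 on the deficient-labelled arrays. Within each group the arrays differed by less than 0.2, and the groups lay 2.79 apart at their nearest. The difference was 2.96 (SE 0.16, limma adjusted p = 0.169), or 7.80-fold, and 99.9% of probe sets had a lower difference. Leaving out any 1 array gave 2.87 to 3.06.

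Blvra encodes biliverdin reductase A, which makes the bilirubin of adult tissue. It read 8.01 and 8.39 in the controls and 9.32 and 8.82 on the deficient-labelled arrays. The groups did not overlap, and their nearest arrays were 0.43 apart. The difference was 0.87 (SE 0.27, limma adjusted p = 0.408), or 1.83-fold. The unadjusted p of 0.0328 became 0.136 and 0.0533 without control replicates 1 and 2, 0.106 without deficient replicate 1 and 0.08 with the replicate number as a block.

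Hmox1 encodes heme oxygenase 1, the inducible enzyme that opens the heme ring and frees its iron. It read 7.39 and 7.53 in the controls and 9.92 and 8.33 on the deficient-labelled arrays. Both arrays labelled deficient were above both controls, replicate 1 by far more than replicate 2. The difference was 1.67 (SE 0.59, limma adjusted p = 0.421), or 3.17-fold, and it was 2.46 without deficient replicate 2 and 0.87 without deficient replicate 1.

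**Figure D2:**
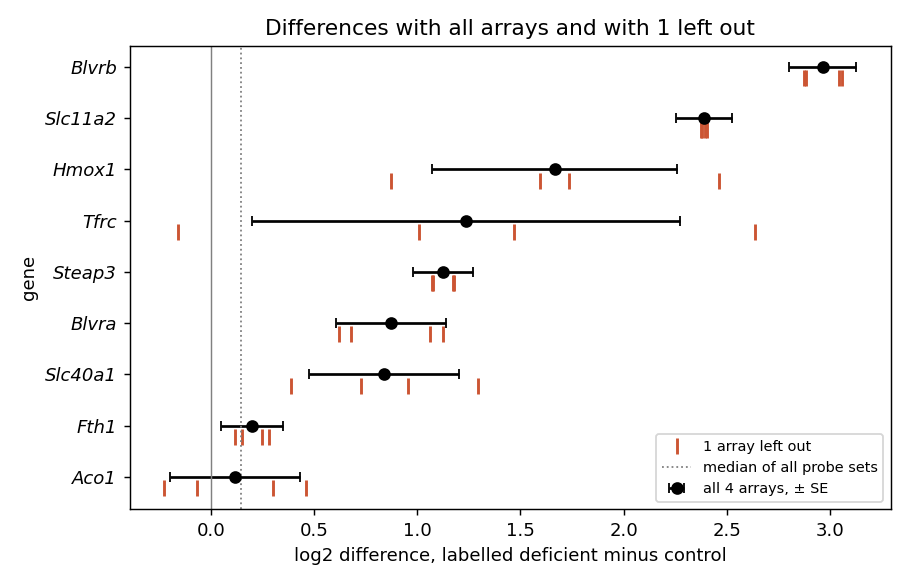
Log2 difference between the groups (horizontal axis) for each gene (vertical axis), with points for the fit to all 4 arrays, bars for its SE, orange ticks for fits with 1 array left out, a solid line at 0 and a dotted line at 0.15, the median of all probe sets. The ticks of Slc11a2, Steap3 and Blvrb stay near their points, those of Tfrc run from -0.16 to 2.63 and those of Hmox1 from 0.87 to 2.46.

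The arrays labelled deficient differed from each other in opposite directions for different iron genes. Tfrc was higher on deficient replicate 2 by 2.79. Hmox1 was lower there by 1.59, a gap reached in either direction by 4.08% of probe sets, and Slc40a1 was lower there by 0.90, a gap reached by 11.2%. Aco1 and Blvra were lower on that array too, with differences of -0.68 and -0.50. Blvrb, Slc11a2, Steap3 and Fth1 had gaps of 0.16 or less, below the median gap of 0.23 over all probe sets.

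Markers of red cells did not differ as one between these arrays. The summed level of the 17 erythroid markers was 9344 on deficient replicate 1 and 11243 on deficient replicate 2, but their median difference, replicate 2 minus replicate 1, was 0.026, against 0.031 over all probe sets. Of the 17, 10 were higher on replicate 2, as were 53.9% of all probe sets. Slc4a1, the anion exchanger band 3 of late red cell precursors, read 6.89 on deficient replicate 1 and 10.004 on deficient replicate 2, against 6.15 and 6.21 on the controls. Hemgn and Epb42, which encode hemogen and protein 4.2, read 7.42 and 5.19 on deficient replicate 1 and 9.62 and 7.22 on deficient replicate 2. The other way round, Epor, the erythropoietin receptor, read 9.67 on replicate 1 and 8.58 on replicate 2, and Tspo2, a translocator protein of red cell precursors, read 9.32 and 8.61. Klf1 and Ank1, the ankyrin of the red cell membrane, read 9.68 and 8.24 on replicate 1 and 9.65 and 8.37 on replicate 2.

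Most macrophage markers, but not all, were lower on deficient replicate 2. Their summed level was 4226 on deficient replicate 1 and 3008 on deficient replicate 2, with a median difference of -0.24, and 6 of 18 were higher on replicate 2, against the same 53.9% of all probe sets. C1qc, a chain of complement C1q made by tissue macrophages, read 8.90 on deficient replicate 1 and 6.28 on deficient replicate 2, against 6.38 and 6.45 on the controls. Csf1r and Cd68 read 7.52 and 9.07 on deficient replicate 1, and 6.02 and 7.95 on deficient replicate 2. Among the 6 that were higher on replicate 2, C1qa, another chain of C1q, read 8.83 and 9.001 on the arrays labelled deficient. Mrc1, the mannose receptor, read 6.57 and 7.16. The part of cell make-up in the gaps of Tfrc, Hmox1 and Slc40a1 was not tested.

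**Figure D3:**
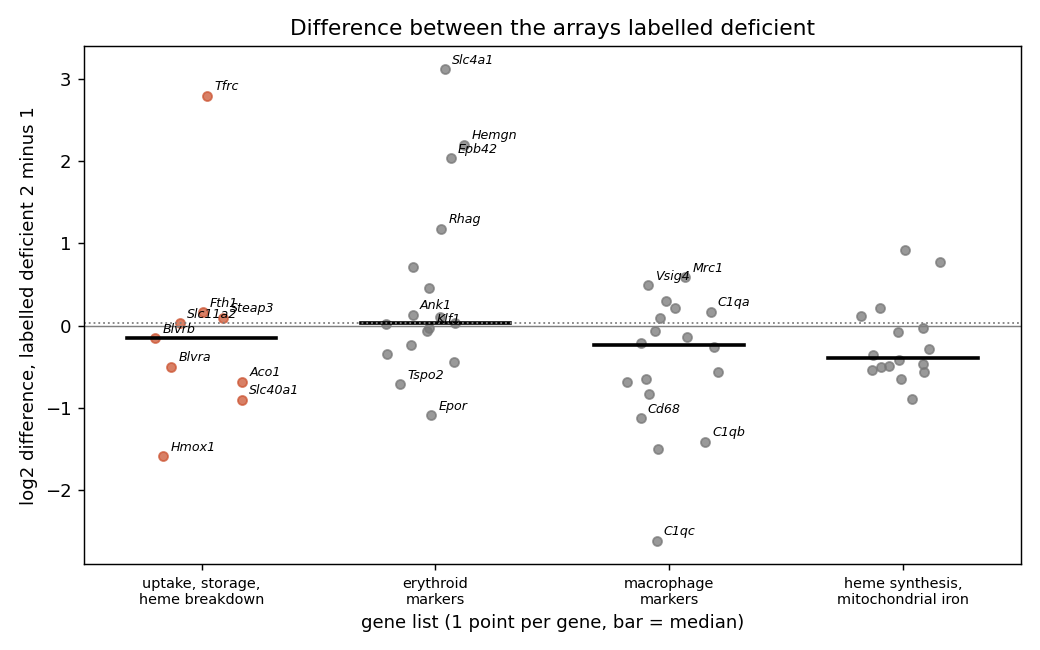
Log2 value on deficient replicate 2 minus that on deficient replicate 1 (vertical axis), 1 point per gene, for the 9 genes in orange and for 3 other lists in grey, with a bar at each list's median and a dotted line at 0.031, the median of all probe sets. Tfrc, Slc4a1, Hemgn and Epb42 lie above 2. Hmox1, the erythroid marker Epor and the macrophage markers C1qb, C1qc, Csf1r and Cd68 lie below -1. Both marker lists have genes on either side of 0.

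The rest of the iron pathway had a median difference near that of all genes. Of 31 other genes of iron handling, 29 were measured. At an unadjusted p under 0.05, 7 were higher and 0 lower, where 6.64% and 5.25% of all probe sets were, and 0 passed the adjusted threshold. The 7 became 4 with array medians subtracted, 2 with cyclic loess, 1 with the replicate block and 3 without the dimmer 50% of probe sets. Their median difference was 0.26, against 0.16 over all genes. Those with the smallest p were Hamp2, Erfe, Bmp6 and Hephl1. Hamp2, a hepcidin gene, read 7.26 and 7.48 in the controls and 7.96 and 8.18 on the deficient-labelled arrays. Erfe, the erythroid hormone erythroferrone that suppresses hepcidin, differed by 0.51 (SE 0.15), and Bmp6, an inducer of hepcidin, by 0.46 (SE 0.15). Hephl1, a ferroxidase, differed by 0.49 (SE 0.16). It was dim, at 4.53 and 4.65 in the controls, below the lower quartiles of those arrays, 4.68 and 4.73.

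Ferritin light chain differed more than the heavy chain. Ftl1 read 10.63 and 10.87 in the controls and 11.58 and 11.21 on the deficient-labelled arrays, a difference of 0.65 (SE 0.21, limma adjusted p = 0.411), and 4 further probe sets that also match other symbols gave 0.39 to 0.57. Ireb2, iron regulatory protein 2, read 6.51 and 6.07 against 5.41 and 6.04, so deficient replicate 2 was just below the lower control. Trf, transferrin itself, read 8.44 and 8.88 against 9.21 and 7.73, with overlapping groups.

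Ncoa4, the receptor that delivers ferritin to lysosomes so that its iron can be used, had the lowest difference of this list. Its brighter probe set read 9.99 and 9.82 in the controls and 6.24 and 9.09 on the deficient-labelled arrays, and its second one 9.90 and 9.66 against 6.24 and 8.99. Both arrays labelled deficient were below the controls, replicate 1 by far more. The difference was -2.24 (SE 1.04, limma adjusted p = 0.441). Like Tfrc, and unlike Hmox1, it was higher on deficient replicate 2 than on deficient replicate 1, by 2.85.

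**Figure D4:**
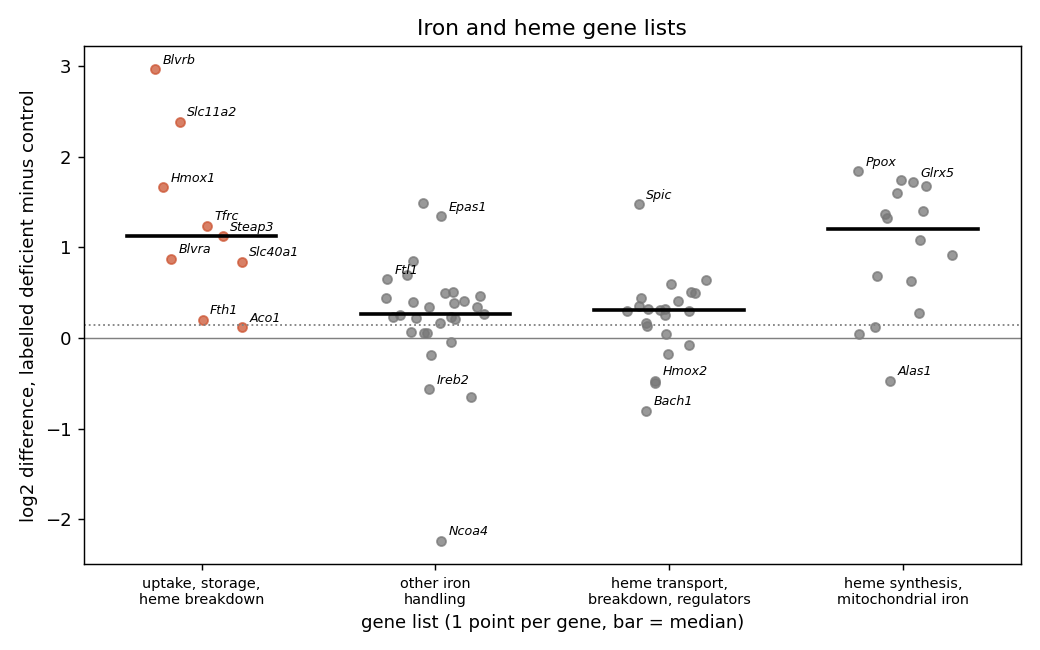
Log2 difference between the groups (vertical axis), 1 point per gene, for the 9 genes in orange and for 3 lists of other iron and heme genes in grey, with a bar at each list's median and a dotted line at 0.15, the median of all probe sets. Blvrb and Slc11a2 lie above every gene of the other 3 lists, and the bars stand at 1.13, 0.26, 0.30 and 1.21.

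All 22 listed genes of heme transport, heme breakdown and their regulators were measured. Of these, 3 were higher and 2 lower at an unadjusted p under 0.05, where 6.64% and 5.25% of all probe sets were. The adjusted threshold was passed by 0, and the median difference was 0.30. The higher count was 1 without either control replicate or with cyclic loess and 5 without deficient replicate 2, and the lower count 0 without control replicate 1 and 1 without control replicate 2 or deficient replicate 2. Spic, the factor that heme induces in iron-recycling macrophages, read 5.72 and 5.28 in the controls and 7.01 and 6.94 on the deficient-labelled arrays (difference 1.47, SE 0.21, limma adjusted p = 0.28). Bach1, the heme-sensing repressor of Hmox1, read 8.06 and 7.75 against 6.95 and 7.25 (difference -0.80, SE 0.21). Nfe2l2, which encodes the activator NRF2, had overlapping groups, with 8.96 and 7.71 against 8.43 and 8.89. Srxn1, a sulfiredoxin under NRF2 control, differed by 0.51 (SE 0.17).

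The constitutive heme oxygenase was lower on both arrays labelled deficient, whereas Hmox1 was higher on both. Hmox2 read 9.18 and 9.10 in the controls and 8.75 and 8.59 on the deficient-labelled arrays, a difference of -0.47 (SE 0.15, limma adjusted p = 0.409). Cd163, the macrophage receptor for haptoglobin-bound hemoglobin, read 4.82 and 4.93 against 5.05 and 5.21.

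Genes of heme synthesis and mitochondrial iron import differed about as much as the 9 genes did. Of 18 listed, 16 were measured. Of these, 9 were higher and 0 lower at an unadjusted p under 0.05, where 6.64% and 5.25% of all probe sets were. The adjusted threshold was passed by 0, and the median difference was 1.21. Cpox, coproporphyrinogen oxidase, read 8.43 and 8.49 in the controls and 10.10 and 10.02 on the deficient-labelled arrays, and Ppox, the next enzyme, differed by 1.84 (SE 0.19). Glrx5, a glutaredoxin of iron-sulfur cluster assembly, differed by 1.72 (SE 0.19), and Tmem14c, a porphyrin carrier of erythroid mitochondria, by 1.74 (SE 0.21). Alas2, the erythroid first enzyme, whose messenger RNA carries an iron-responsive element, read 5.35 and 5.30 against 6.03 and 6.80, and Fech, which inserts the iron, read 6.91 and 6.19 against 7.50 and 6.96.

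Likeness to other genes was measured as the Euclidean distance over the 4 arrays between log2 values centred on each gene's own mean, over 19937 other genes, for the 3 of the 9 genes with the largest difference. Nearest to Slc11a2 were Ctse (distance 0.19), which encodes cathepsin E, Ank1 (0.28) and Emc9 (0.36). Nearest to Blvrb were Atp1b2 (0.26), a sodium pump subunit, Mt2 (0.35), a metallothionein, and Crip2 (0.36). Nearest to Hmox1 were Pla2g12a (0.16), Cma1 (0.19), a mast cell chymase, and Ackr1 (0.21), the atypical chemokine receptor of red cells and venules. With 4 arrays, many genes share a profile by their group difference alone.

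Promoter sequence is shown for Blvrb, Steap3 and Blvra, the 3 genes with a match to a searched motif, to set out which factor motifs lie near their starts. Both arrays labelled deficient were above both controls for all 3, as for 7 of the 9 measured genes and 38.9% of all probe sets. The 7 include Fth1, whose searched sequence held no match, and Slc11a2, Slc40a1 and Hmox1, which had no sequence to search. A link between motifs and differences was not tested. The RefSeq promoter table (GRCm38.p6) held 13 windows for 7 of the 10 genes, namely Tfrc, Steap3, Slc11a1, Fth1, Aco1, Blvra and Blvrb, and the 250 bases before each start were searched on both strands. Searched were the GATA sites AGATAA or AGATAG or TGATAA or TGATAG, bound by GATA1 and GATA2, the ETS core CCGGAAG, the form bound by GABP, the antioxidant response core TGACNNNGC, bound by NRF2 and BACH1 with small MAF partners, and the CACCC site CCACACCC, bound by KLF1. No 2 of these motifs overlapped in the windows printed. The windows of Tfrc, Slc11a1, Fth1 and Aco1 and of the later Steap3 starts held no match and are not printed. The lines give the windows 5′ to 3′ on the gene's strand with matches in capitals, for Blvrb upstream of its first start at chr7:27447728-27447977 (plus strand, no match) and of a second start at chr7:27452168-27452417 (plus strand, GATA), for Steap3 at chr1:120271081-120271330 (minus strand, GATA) and for Blvra at chr2:127070407-127070656 (plus strand, antioxidant response core).
Blvrb, first start: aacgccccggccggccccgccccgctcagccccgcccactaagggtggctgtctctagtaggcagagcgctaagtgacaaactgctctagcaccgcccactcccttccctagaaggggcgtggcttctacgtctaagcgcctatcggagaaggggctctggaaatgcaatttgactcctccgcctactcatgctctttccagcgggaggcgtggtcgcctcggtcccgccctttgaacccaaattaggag
Blvrb, second start: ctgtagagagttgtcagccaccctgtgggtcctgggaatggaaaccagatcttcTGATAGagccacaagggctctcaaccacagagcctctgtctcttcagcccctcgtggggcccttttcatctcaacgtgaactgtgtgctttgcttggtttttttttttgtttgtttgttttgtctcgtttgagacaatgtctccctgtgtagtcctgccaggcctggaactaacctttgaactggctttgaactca
Steap3, first start: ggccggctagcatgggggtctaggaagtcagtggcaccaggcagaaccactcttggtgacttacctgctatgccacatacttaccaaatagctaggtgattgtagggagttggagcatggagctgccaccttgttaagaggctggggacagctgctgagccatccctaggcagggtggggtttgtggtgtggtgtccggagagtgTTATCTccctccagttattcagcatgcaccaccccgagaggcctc
Blvra: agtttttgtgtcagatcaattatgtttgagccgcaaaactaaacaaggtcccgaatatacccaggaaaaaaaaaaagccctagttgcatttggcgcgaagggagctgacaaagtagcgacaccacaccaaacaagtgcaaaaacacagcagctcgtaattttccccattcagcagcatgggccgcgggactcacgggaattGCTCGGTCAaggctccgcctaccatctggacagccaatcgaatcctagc

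A GATA site was found in 2 of the 13 windows, TGATAG in that of the second start of Blvrb, 191 to 196 bases before it, and TTATCT, the reverse complement of AGATAA, in that of the first start of Steap3, 40 to 45 bases before it. Of all 32851 windows, 26.5% held such a site. The antioxidant response core was found in 1 window, as GCTCGGTCA 41 to 49 bases before the start of Blvra, and 10.2% of all windows held one. The ETS core was in 0 of the 13 windows, against 6.91% of all windows, and the CACCC site in 0, against 3.20%. These counts only say which letters stand in these windows.

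The granulocyte and monocyte markers were mixed. Of 17 measured, 10 had a difference above 0 and 7 below, where 67.6% of all genes had one above 0. Their median difference was 0.25, with summed levels of 14066 and 12083 in the controls against 13210 and 10288 on the deficient-labelled arrays. At an unadjusted p under 0.05, 1 was higher, which ran from 0 to 2 with 1 array left out, and 2 were lower, which was 5 without deficient replicate 1 and 1 without control replicate 1 or deficient replicate 2. The higher one was Mmp9, the gelatinase of granules, at 5.15 and 5.30 in the controls and 5.87 and 5.83 on the deficient-labelled arrays. The lower ones were Mpo, myeloperoxidase, at 12.48 and 12.56 against 11.85 and 11.47, and Csf3r, the G-CSF receptor, at 7.99 and 7.58 against 6.89 and 6.61. Ltf, lactoferrin, which binds iron, read 6.29 and 5.82 against 6.50 and 7.23, without passing the test.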

How the data were processed

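RNA of Flt3-negative LSK cells was amplified from an input between 800 pg and 50 ng, a range given alike for all samples, and hybridised to 4 arrays. The authors deposited log2 values, 1 per probe set, made with RMA and Partek, versions not stated, per the submitters' processing notes. RMA includes a background correction, quantile normalization and a summary of the probes. The build the authors used was not stated. No value was transformed again, and arrays carry no read depth, so their number limits the precision. Of 35556 probe sets, 21789 had 1 symbol, 1621 several and 12146 none, with symbols updated through the RefSeq gene table of GRCm38.p6. Of several probe sets of a gene, the one brightest on average was used.

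Groups were compared in R 4.3.3 with limma 3.58.1 (lmFit and eBayes, genotype alone), with Benjamini-Hochberg adjustment over all probe sets. The procedure was tested on simulated data. The 10 genes and the lists were chosen with earlier results of these data known, and the labelled replicate numbers were not treated as pairs, since nothing in the labels ties them and replicate 1 minus replicate 2 correlated at -0.088 between groups across probe sets.

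Named were the 10 genes, Gabpa, up to 4 genes with the smallest p in each list, 13 further genes fixed by name (Hmox2, Ireb2, Ftl1, Trf, Alas2, Fech, Bach1, Nfe2l2, Spic, Cd163, Kit, Flt3 and Cd34) and the nearest profiles. Nfe2, Ncoa4, Slc4a1, Hemgn, Epb42, Epor, Tspo2, C1qb, C1qc, Csf1r and Cd68 are outside that rule, chosen after their values had been seen. Figures were drawn with matplotlib 3.10.9.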

Additional observations from a re-analysis of the deposited data

How the results depend on the processing

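Alternatives were cyclic loess between arrays, subtraction of array medians, a fit without the dimmer 50% of probe sets, an intensity trend in eBayes, a replicate block, and leaving out each array. Each of the 9 genes has 1 probe set, so the choice among probe sets changed none of them. Blvrb, Slc11a2, Steap3, Hmox1, Blvra, Slc40a1 and Fth1 stayed above 0 in all 9 alternatives. Tfrc ran from -0.16 without deficient replicate 2 to 2.63 without deficient replicate 1. Aco1 ran from -0.22 without deficient replicate 1 to 0.46 without deficient replicate 2, and was -0.067 without control replicate 1. Each such fit has 1 array fewer, and the cause was not tested further.

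The count of genes higher at an unadjusted p under 0.05, 4 of 9, was 3 with the replicate block and 5 with cyclic loess, and ran from 3 to 6 with 1 array left out. Steap3, Slc11a2 and Blvrb were among them in every alternative. The median difference of the 9 genes ran from 0.87 to 1.18 with 1 array left out. The count of genes above 0 ran from 8 to 9. Under every alternative 0 probe sets passed the adjusted threshold, with a lowest adjusted p of 0.148 to 0.522; limma with all arrays had 4225 at an unadjusted p under 0.05. Scaling moved the median of all probe sets from 0.15 to -0.0045 with cyclic loess, and with it the split from 2360 higher and 1865 lower to 1191 and 2349, or to 1537 and 2185 with array medians subtracted. An exact permutation test of 2 arrays against 2 cannot go below p = 0.333 (two-sided). Without detection calls, low readings such as those of Hephl1 could not be told from background. The same holds for Slc40a1 in the controls, at 5.67 and 5.44, below the array medians of 5.87 and 5.91. Its mean over all 4 arrays was near the middle, with 49.5% of probe sets higher.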
